A study of Mus musculus with 6 samples.

Results

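Fam227b, Bub1b and Ccdc3 lie on mouse chromosome 2 and Fkbp10 lies on chromosome 11. These 4 genes, of 17645 listed in the deposited tables, were chosen by name from the genes whose levels differed between the 2 groups of libraries on those chromosomes. The difference between the groups therefore chose them, and their own values are given as a description with no test. All 4 passed the filter on low counts. The study sequenced RNA of the suprachiasmatic nucleus (SCN), which lies in the hypothalamus and holds the central circadian clock. The samples came from female C57BL/6 mice killed in darkness between 12 and 14 h of zeitgeber time, counted from lights on. Per the labels, RNA from 2 SCN was pooled for each library, and 3 libraries were made per genotype. The 3 libraries titled V carry the replicate numbers 2, 3 and 4, and the 3 titled r1r2V carry the numbers 1, 4 and 5. The series title names a knockout of the REV-ERBα and REV-ERBβ genes, Nr1d1 and Nr1d2, in GABAergic neurons. The r1r2V libraries were read as that knockout and the V libraries as its control. The labels do not explain V, name the Cre driver or give the animals' ages. They do not say whether the pools came from separate animals, so p-values measure only the spread between these samples.

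REV-ERBα and REV-ERBβ are nuclear receptors that repress transcription, among other genes that of the clock activator Arntl (BMAL1). They bind a nuclear receptor half-site, AGGTCA, preceded by an A/T-rich stretch. Bub1b encodes BUBR1, a kinase-like protein of the spindle assembly checkpoint, which holds dividing cells in metaphase until the chromosomes are attached. Fkbp10 encodes FKBP65, a chaperone of the endoplasmic reticulum that acts on collagen. Ccdc3 encodes a secreted coiled-coil protein, and Fam227b a protein of little described function. Neurons of the adult SCN no longer divide, and collagen in the brain is made mainly by vascular and meningeal cells.

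Promoter sequences of the chromosome 2 genes are shown so that the letters of the REV-ERB element can be looked for in them. Each holds the 250 bases upstream of the start given by the RefSeq promoter table (GRCm38.p6), which matched 3 of the 4 genes. That start is not the outer end of the annotated gene: it lies 149 bases inside the span of Fam227b, 9 inside that of Bub1b and 465 inside that of Ccdc3. Of the 250 bases, 149 of Fam227b, 9 of Bub1b and all 250 of Ccdc3 thus fall within the annotated span given for each gene further on. Capitals mark a match to AGGTCA on either strand. The Fam227b sequence is chr2:126152005-126152254 on the minus strand, that of Bub1b is chr2:118597961-118598210 on the plus strand, and that of Ccdc3 is chr2:5137526-5137775 on the plus strand.
Fam227b: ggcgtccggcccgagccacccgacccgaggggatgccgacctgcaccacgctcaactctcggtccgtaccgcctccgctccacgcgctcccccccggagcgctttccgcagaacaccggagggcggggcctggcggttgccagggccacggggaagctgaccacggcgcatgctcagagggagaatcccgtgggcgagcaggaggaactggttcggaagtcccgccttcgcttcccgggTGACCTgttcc
Bub1b: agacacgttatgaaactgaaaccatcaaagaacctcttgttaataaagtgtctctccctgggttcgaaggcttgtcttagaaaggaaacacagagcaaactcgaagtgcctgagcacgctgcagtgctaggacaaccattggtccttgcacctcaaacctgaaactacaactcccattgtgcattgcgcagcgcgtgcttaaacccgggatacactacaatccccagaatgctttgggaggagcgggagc
Ccdc3: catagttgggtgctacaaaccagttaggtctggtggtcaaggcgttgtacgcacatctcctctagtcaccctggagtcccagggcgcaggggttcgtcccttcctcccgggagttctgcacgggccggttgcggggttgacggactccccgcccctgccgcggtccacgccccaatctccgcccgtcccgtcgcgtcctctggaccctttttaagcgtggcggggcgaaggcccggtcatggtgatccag
Fam227b held AGGTCA once, in the reverse direction, with its first base 11 bases upstream of the table's start, which is inside the annotated span. Of 32851 mouse promoters of the same length, 14% held AGGTCA on at least 1 strand. The longer letters ANTAGGTCA and ANTGGGTCA, which overlap AGGTCA and its relative GGGTCA, were in 0.548% and 0.664% of promoters and in none of these 3. Nor did the 3 sequences hold the E-box CACGTG (6.02% of promoters) or the D-box letters TTATGTAA (0.819%) and TTACGTAA (0.113%). The G and C content was 71.2% for Fam227b, 65.2% for Ccdc3 and 49.2% for Bub1b, beside a median of 52.4% over all promoters. Fam227b had 28 CpG dinucleotides, Ccdc3 22 and Bub1b 9, beside a median of 6. A match is a description of the letters and not a binding site.

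The targeted genes were examined first as a check of the labels. The level of Nr1d1 was 56.7, 62.5 and 57 CPM (counts scaled by library size to a common total) in V and 196, 157 and 147 CPM in r1r2V. This is a log2 fold change of 1.50, r1r2V minus V, with a Benjamini-Hochberg adjusted p of 8.24e-05 (quasi-likelihood test of edgeR over all genes). Nr1d2 had 177, 179 and 168 CPM in V and 229, 275 and 222 in r1r2V (log2 fold change 0.47, adjusted p = 0.0553 in edgeR). Both totals were thus higher in the libraries labelled as the knockout, and every direction here is between libraries by their labels. The labels do not name the deleted exons, and only GABAergic neurons were targeted. Of 14438 genes tested, 43 were higher (0.298%) and 17 lower (0.118%) in the r1r2V libraries. Those 60 called genes are 0.416% of the genes tested, and the log2 fold change of all genes had a median of 0.01, with 5% below -0.27 and 5% above 0.31. Chromosome 2 held 7 called genes among 1143 tested (0.612%) and chromosome 11 held 6 among 1150 (0.522%), in both cases with the genes described here included. Chromosome 14, which carries Nr1d2, held 28 of the 60 (5.45% of its genes), beside 0.23% of the genes on all other chromosomes. Total expected counts ran from 15729603 to 17780928 per library. All 13 marker genes of SCN neurons passed the filter, with sums of 3682 to 3721 CPM in V and 3431 to 3804 CPM in r1r2V.

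Fam227b (gene 75823) was nearly silent in the V libraries and present at a low level in the r1r2V libraries. It lies at chr2:125983473-126152153 on the minus strand (GRCm38), and its RefSeq mRNA is 1858 bases long. The expected counts were 1.00, 2.01 and 2.01 in V replicates 2, 3 and 4, and 52.98, 39.61 and 45.17 in r1r2V replicates 1, 4 and 5. The groups did not overlap, and the lowest r1r2V library was 18.1-fold above the highest V library in CPM. The V libraries averaged 0.0987 ± 0.0373 CPM and the r1r2V libraries 2.67 ± 0.391 CPM (SD, n = 3). The fitted log2 fold change was 4.67 with a standard error of 0.37. Summed over the libraries there were 5 rounded counts in V and 138 in r1r2V, a ratio of 27.3 after scaling for library size with an exact 95% interval of 11.4 to 85.4 that covers counting error only. Per length, the level rose from 0.0533 ± 0.0208 to 1.51 ± 0.246 FPKM, fragments scaled by transcript length and library size. Its mean CPM over the 6 libraries ranked at percentile 6.43 of the genes tested.

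Bub1b (gene 12236), the checkpoint gene, was the most variable of the 4 within a group. It lies at chr2:118598202-118641592 on the plus strand, with an mRNA of 3669 bases. The expected counts were 66, 72 and 52 in V, and 3, 17 and 11 in r1r2V replicates 1, 4 and 5. The r1r2V libraries were all lower than the V libraries, and replicate 1 was the lowest. The mean was 3.69 ± 0.38 CPM over the V libraries and 0.597 ± 0.403 CPM over the r1r2V libraries (SD, n = 3). The fitted log2 fold change was -2.61 with a standard error of 0.37, a level 6.12-fold higher in V. The coefficient of variation among the r1r2V libraries was 67.5%, beside 31.1% from counting alone. On the FPKM scale the levels were 1.04, 1.14 and 0.92 in V and 0.05, 0.27 and 0.18 in r1r2V. With 190 against 31 counts in all, the ratio of V to r1r2V was 6.2 with an exact 95% interval of 4.22 to 9.38, for counting error only.

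Ccdc3 (gene 74186), the gene of the secreted coiled-coil protein, was lower in every r1r2V library, with little spread in either group. It lies near the start of chromosome 2, at chr2:5137311-5235967 on the plus strand, with an mRNA of 2769 bases. The expected counts were 171, 163 and 129 in V and 79, 77 and 68 in r1r2V. Scaled for library size, the V libraries were at 9.65, 9.18 and 8.18 CPM, against 4.58, 4.42 and 3.96 CPM for r1r2V. The lowest V library was 1.79-fold above the highest r1r2V library. The log2 fold change was -1.06 with a standard error of 0.14, a level 2.08-fold higher in V. The coefficients of variation, 8.31% in V and 7.45% in r1r2V, were near or below those of counting alone, 8.05% and 11.6%.

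Fkbp10 (gene 14230), the collagen chaperone, had the smallest difference of the 4. It lies at chr11:100415694-100424840 on the plus strand, with 2 listed transcripts and a length of 2619 bases. The expected counts were 157.96, 164.95 and 123.97 in V and 91.00, 71.00 and 84.87 in r1r2V. In CPM the V libraries were at 8.92, 9.3 and 7.87 and the r1r2V libraries at 5.28, 4.08 and 4.95. The groups did not overlap, the lowest V library being 1.49-fold above the highest r1r2V library. The log2 fold change was -0.87 with a standard error of 0.15, a level 1.82-fold higher in V.

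**Figure D1:**
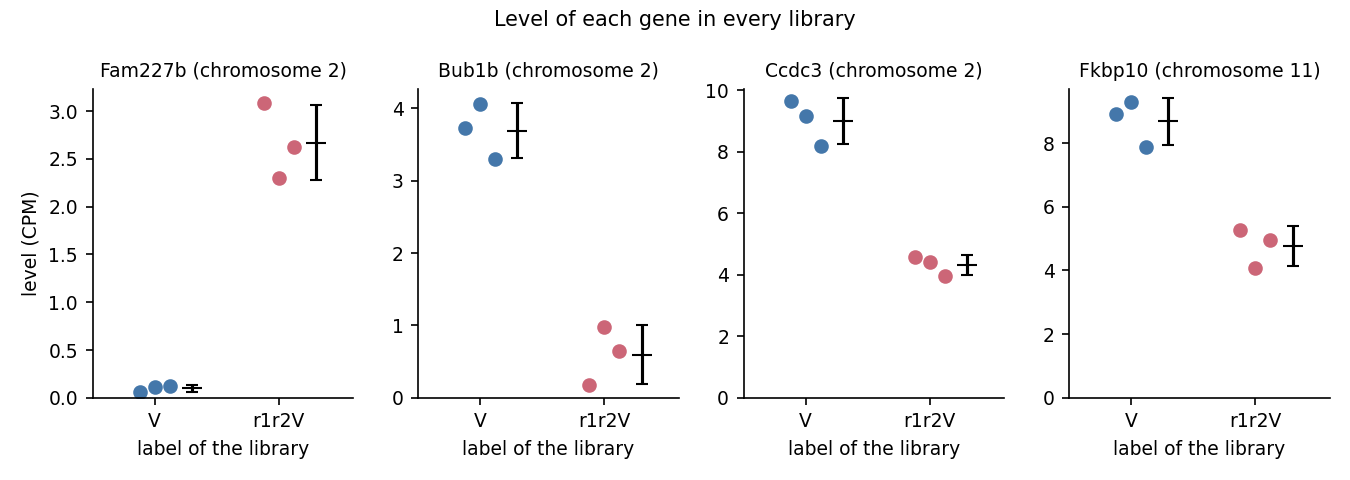
Levels of Fam227b, Bub1b, Ccdc3 and Fkbp10 in CPM (vertical axes starting at 0, each panel with its own scale) in the 3 V and 3 r1r2V libraries. Points are libraries and bars are the mean with its SD. In each panel the groups do not overlap: Fam227b is higher in r1r2V (2.30 to 3.08 CPM against 0.0564 to 0.127), and the other genes are lower.

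Per length, Ccdc3 and Fkbp10 had the highest levels of the 4 in the V libraries, 3.38 ± 0.275 and 3.45 ± 0.302 FPKM, and these overlapped. Bub1b followed at 1.03 ± 0.11 and Fam227b at 0.0533 ± 0.0208 FPKM. In the r1r2V libraries the order was Fkbp10 (1.89 ± 0.265), Ccdc3 (1.61 ± 0.132), Fam227b (1.51 ± 0.246) and Bub1b (0.167 ± 0.111 FPKM; SD, n = 3 for all). There the first 3 lay within each other's range or close to it, with Fkbp10 at 2.12, 1.60 and 1.95, Ccdc3 at 1.73, 1.64 and 1.47 and Fam227b at 1.77, 1.28 and 1.49 FPKM. Bub1b thus went from the third place to the last and Fam227b from the last to the third. In bulk tissue, fewer cells of a type and less RNA per cell cannot be told apart.

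All 4 genes were called and did not overlap between groups, which the choice of the genes fixes, beside 0.416% and 14.5% of all genes tested. At the edge of the threshold on the same chromosomes, Fkbp10 was just inside (adjusted p = 0.0446 by edgeR), and Tubg2 (0.0668) and Cybrd1 (0.0714) were the first outside. Each gene kept its direction in 13 alternatives, which changed the test, scaling, filter or unit or left out 1 library. These alternatives reuse the libraries that chose the genes. They describe how each call depends on the processing and are not a new test. Fam227b was past the threshold in all 13. Bub1b was past it in 10 and missed it whenever V replicate 2, 3 or 4 was left out, and Ccdc3 in 11, missing it without V replicate 2 or 3. Fkbp10 was past it in 5 and missed it without any 1 of the 6 libraries, with a filter of 1 CPM and on log2(FPKM + 0.1). With 1 library left out, the log2 fold change ran from 4.40 to 4.86 for Fam227b, from -3.16 to -2.18 for Bub1b, from -1.13 to -1.00 for Ccdc3 and from -0.95 to -0.77 for Fkbp10.

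The genes that overlap or adjoin the 4 did not pass the test. The span of Fam227b holds Fgf7, a growth factor gene, and it overlaps Galk2 and Dtwd1 at its ends, all on the plus strand. Fgf7 had 3.16, 4.34 and 3.11 CPM in V and 5.51, 3.91 and 5.65 in r1r2V (log2 fold change 0.50, adjusted p = 0.615 by edgeR). Galk2, a sugar kinase gene, had a log2 fold change of -0.19 (edgeR adjusted p = 0.601) and Dtwd1 one of 0.07 (0.89). The Galk2 and Fam227b exons share 283 bases on opposite strands, 15.2% of the Fam227b transcript. Bub1b lies between Bmf, 48.5 kb away (-0.68, edgeR adjusted p = 0.437), and Pak6, 21.5 kb away (-0.20, 0.579), and no other gene's transcript matched that of Bub1b at 90% identity. Ccdc3 lies between Optn (-0.26, edgeR adjusted p = 0.496) and Camk1d (-0.07, 0.863). The long noncoding RNA gene Gm26776, on the other strand, shares 1845 of the 2670 exonic bases of Ccdc3 in the GENCODE annotation. In a search that lists at most 2000 transcripts, stretches of the Ccdc3 transcript with a median of 40 bases matched 1497 other genes at 90% identity, and the longest, 989 bases, matched Gm26776. How reads from such stretches were assigned is not known, and the Ccdc3 values carry that limit. Fkbp10 overlaps Nt5c3b on the other strand by 193 exonic bases, and Nt5c3b had a log2 fold change of 0.00 (edgeR adjusted p = 0.991). The sources used here do not say whether the authors' counting used strand, so reads from overlapping exons cannot be told apart.

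P3h4, which encodes a partner of the collagen prolyl hydroxylases, is the gene closest to Fkbp10 without overlapping it, 1.0 kb away on the opposite strand. P3h4 had 36.5, 33 and 32 CPM in V and 31.1, 29 and 29.3 in r1r2V. All r1r2V libraries lay below all V libraries, and the difference missed the threshold (log2 fold change -0.18, edgeR adjusted p = 0.62). The 2 collagen-related genes thus had differences of unlike size, -0.87 for Fkbp10 and -0.18 for P3h4, and the difference between them was not tested.

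Genes starting within 1 Mb of the 4 numbered 115, and edgeR called 0 of them. Without adjustment 19 of the 115 (16.5%) had p under 0.05, beside 7.58% of all genes tested. Their groups did not overlap in 23 genes (20%), 4 higher and 19 lower in r1r2V, beside 14.5% of all genes tested, 6.87% higher and 7.63% lower. DESeq2 called 2, the γ-tubulin genes Tubg1 (log2 fold change 0.34) and Tubg2 (-0.38) near Fkbp10, where DESeq2 called 0.755% of all genes. The other 12 alternatives called 0. Tubg1 had 48.9, 47.5 and 47.4 CPM in V and 61.6, 58.7 and 61.4 in r1r2V. Tubg2 went the other way, with 74.8, 71.7 and 78.9 in V and 59.1, 54.3 and 59.6 in r1r2V. Their expected counts were not whole, 867.33 and 1325.67 in V replicate 2. How reads were divided between the pair is not known, so both values carry that limit. The median log2 fold change of the 115 was -0.04. Around Bub1b the differences ran from -1.05 for Spint1 to 0.80 for Knstrn, around Fam227b from -0.38 for Hdc to 0.50 for Fgf7, around Ccdc3 from -0.47 for Mcm10 to 0.34 for Nudt5, and around Fkbp10 from -0.53 for Kcnh4 to 0.34 for Tubg1. The differences of the 4 genes themselves lay outside these ranges in each case, which their choice by the group difference favours.

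**Figure D2:**
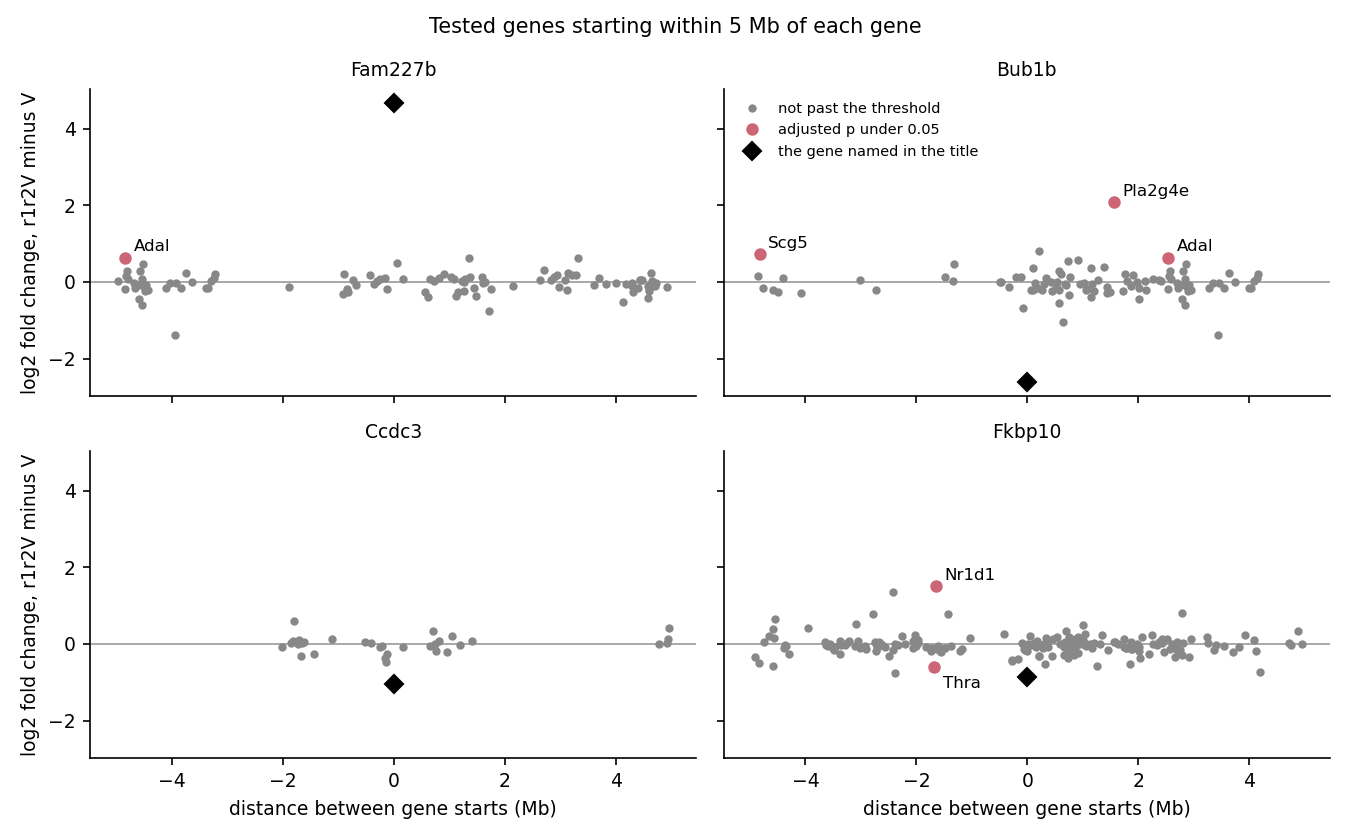
Log2 fold change (r1r2V minus V, vertical axis) of the tested genes that start within 5 Mb of each of the 4 genes, against the distance between gene starts in Mb. Diamonds are the 4 genes and large points the neighbours with an adjusted p under 0.05. Fam227b at 4.67 and Bub1b at -2.61 stand outside the spread of their neighbours, which their choice by the group difference favours. Ccdc3 has no called neighbour.

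Within 5 Mb, 3 of 99 genes near Bub1b were called (3.03%, beside 0.416% of all genes), all higher in r1r2V while Bub1b was lower. Pla2g4e, a phospholipase gene 1.57 Mb away, had 7.5, 6.59 and 8.57 CPM in V and 48.3, 26 and 21.6 in r1r2V (log2 fold change 2.08, edgeR adjusted p = 0.00921). Adal, an adenosine deaminase-like gene 2.54 Mb away, had 22.4, 21.8 and 19.9 CPM in V and 36.1, 31.3 and 32.1 in r1r2V (0.63, edgeR adjusted p = 0.00921). Scg5, which encodes the neuroendocrine chaperone 7B2, is 4.82 Mb away and had 382, 375 and 382 CPM in V and 733, 565 and 597 in r1r2V (0.73, edgeR adjusted p = 0.00641). In all 3 the r1r2V libraries lay above the V libraries, with replicate 1 the highest. These 3 calls ended without V replicate 2, 3 or 4, with adjusted p up to 0.0758 for Pla2g4e, 0.0799 for Adal and 0.06 for Scg5, and held without any 1 r1r2V library. Adal is also the 1 called gene among 105 within 5 Mb of Fam227b (0.952%). Near Fkbp10, 2 of 189 genes were called (1.06%), Nr1d1 at 1.65 Mb and Thra at 1.67 Mb. Thra, which encodes thyroid hormone receptor α and overlaps Nr1d1, was lower in r1r2V (-0.60, edgeR adjusted p = 0.00773), and its call ended without V replicate 2 or 4 (adjusted p up to 0.0742). DESeq2 called 4 genes within 5 Mb of Bub1b, 2 within 5 Mb of Fam227b and 5 within 5 Mb of Fkbp10, beside 0.755% of all genes, and limma-voom called 3, 1 and 2. None of the 32 genes within 5 Mb of Ccdc3 was called by edgeR, DESeq2 or limma-voom, and 2 of them (6.25%) had an unadjusted p under 0.05, beside 7.58% of all genes.

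Where the 4 genes lie relative to the targeted genes and to Slc32a1 also differed. Fkbp10 starts 1.65 Mb from Nr1d1, and the 19 tested genes between them held 0 called by edgeR, DESeq2 or limma-voom. An unadjusted edgeR p under 0.05 was found for 4 of them (21.1%, beside 7.58% of all genes). In 6 of the 19 the groups did not overlap in either direction (31.6%, beside 14.5% of all genes), and the median log2 fold change was -0.15. All 6 were lower in r1r2V, a direction seen in 7.63% of all genes and singled out here after the values were seen. Chromosome 2 holds no targeted gene. Fam227b, Bub1b and Ccdc3 start 32.62, 40.01 and 153.47 Mb from Slc32a1, the vesicular GABA transporter gene that marks GABAergic neurons. The labels do not say whether the locus of Slc32a1 was altered. Slc32a1 itself had 150, 141 and 141 CPM in V and 129, 116 and 117 in r1r2V (log2 fold change -0.25, edgeR adjusted p = 0.314). Nr1d2 lies on chromosome 14, which holds none of the 4.

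Bub1b and Fam227b start 7.39 Mb apart, and 94 tested genes start between them. Of these, 2 were called, Pla2g4e and Adal, beside 0.416% of all genes tested. An unadjusted edgeR p under 0.05 was found for 25 of the 94 (26.6%, beside 7.58% of all genes). The groups did not overlap in 30 (31.9%, beside 14.5% of all genes), 10 higher and 20 lower. The 579 tested genes between Ccdc3 and Bub1b, over 113.46 Mb, also held 2 called genes, Cd59a (0.63, edgeR adjusted p = 0.00374) and Scg5. This far larger set had an unadjusted edgeR p under 0.05 in 50 genes (8.64%), and 14.5% did not overlap, the same share as over all genes. Within 5 Mb the share that did not overlap was 35.4% around Bub1b (35 of 99), 25.7% around Fam227b (27 of 105), 19% around Fkbp10 (36 of 189) and 12.5% around Ccdc3 (4 of 32), beside 14.5% of all genes. The windows of Bub1b and Fam227b share genes. With r1r2V replicate 1 left out, the shares near Bub1b and Fam227b were 38.4% and 37.1%, beside 32.7% of all genes. Without any 1 of the other 5 libraries, they were 38.4% to 49.5% near Bub1b and 32.4% to 43.8% near Fam227b, beside 20.4% to 28.7% of all genes. Leaving out a library cannot lower such a share, so each is to be read beside that of all genes.

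That library also stood farthest from the V libraries in many genes of the stretch. Among genes whose groups did not overlap, r1r2V replicate 1 was the farthest of the 3 in 17 of 27 near Fam227b (63%) and in 19 of 35 near Bub1b (54.3%). Over all such genes it was the farthest in 576 of 2093 (27.5%), and near Fkbp10 in 14 of 36 (38.9%). It was the farthest in 5 of the 6 called genes between 100 and 130 Mb of chromosome 2, all but Cd59a, and in 27 of all 60 called genes (45%). Those 5 include Bub1b and Fam227b, which the group difference chose, and the others are Scg5, Pla2g4e and Adal. The bounds of 100 and 130 Mb were not set before the values were seen, so this count is a description only. Eif3j1, a translation factor gene between Bub1b and Fam227b named after its values were seen, had 64, 62 and 66.9 CPM in V and 0.406, 39.2 and 34.8 in r1r2V. Replicate 1 was nearly without Eif3j1 reads while the other r1r2V libraries lay at about the middle of the range, and the gene did not pass the test with all libraries (-1.37, edgeR adjusted p = 0.666). Without replicate 1 it did (-0.80, edgeR adjusted p = 0.00361). Its transcript matches that of Eif3j2, on chromosome 18, at 99.4% identity over 2379 bases. Eif3j2 had 0.903, 0.901 and 1.14 CPM in V and 56.6, 26.5 and 28.7 in r1r2V, high where Eif3j1 was low, so how reads were divided between the pair makes both values uncertain. Fam227b and Bub1b were themselves most extreme in replicate 1, with 3.08 and 0.174 CPM. The part of this library in the results of the stretch was not tested beyond these values.

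Chromosomes were then divided into stretches of 10 Mb, a division chosen after the neighbours' values were seen, and the 4 genes were left out of the counts. Of 226 stretches with at least 20 tested genes, the median share of genes that did not overlap was 13.6% and the share at percentile 90 was 20.8%. The first 2 ranks went to chromosome 14, which carries Nr1d2. There 0 to 10 Mb had 89.3% (25 of 28 genes, rank 1) and 20 to 30 Mb had 30% (18 of 60, rank 2). The stretch of Nr1d2 between them, from 10 to 20 Mb, had 17.9% (5 of 28, rank 52). On chromosome 2, the stretch of Fam227b, from 120 to 130 Mb, had 28.7% (29 of 101 genes) and ranked number 4. That of Bub1b, from 110 to 120 Mb, had 26.9% (18 of 67) and ranked number 7. Some stretches of other chromosomes, with none of the 4 genes or the targeted genes, had similar shares of genes that did not overlap. On chromosome 8, 30 to 40 Mb had 29% (9 of 31, rank 3). On chromosome 19, 20 to 30 Mb had 27.3%, as had 30 to 40 Mb of chromosome 13 (both 12 of 44, rank 5). The shares with an unadjusted edgeR p under 0.05 were less alike. They were 24.8% in the stretch of Fam227b and 16.4% in that of Bub1b, beside 7.58% of all genes. In the stretches of chromosomes 8, 19 and 13 they were 9.68%, 9.09% and 11.4%. The stretch of Ccdc3 had 13.8% (4 of 29, rank 107) and that of Fkbp10 14.4% (23 of 160, rank 97). The stretch before Fkbp10, which holds Nr1d1, had 24.3% (26 of 107, rank 13), and that of Slc32a1 had 11.8% (15 of 127, rank 143). The stretches were not tested against each other, and that of Ccdc3 holds few genes. In the windows of 5 Mb, the shares without r1r2V replicate 1 were 38.4% near Bub1b, 37.1% near Fam227b, 36% near Fkbp10 and 25% near Ccdc3. The share of all genes rose more, from 14.5% to 32.7%. Leaving out any 1 library raised the share of all genes, to at least 20.4%. Groups that do not overlap cannot come to overlap when a library is removed, so these shares could not fall. The rise by itself therefore says nothing about the library left out. Linkage to an altered locus and an effect of the deletion on the genes cannot be told apart from these group values.

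**Figure D3:**
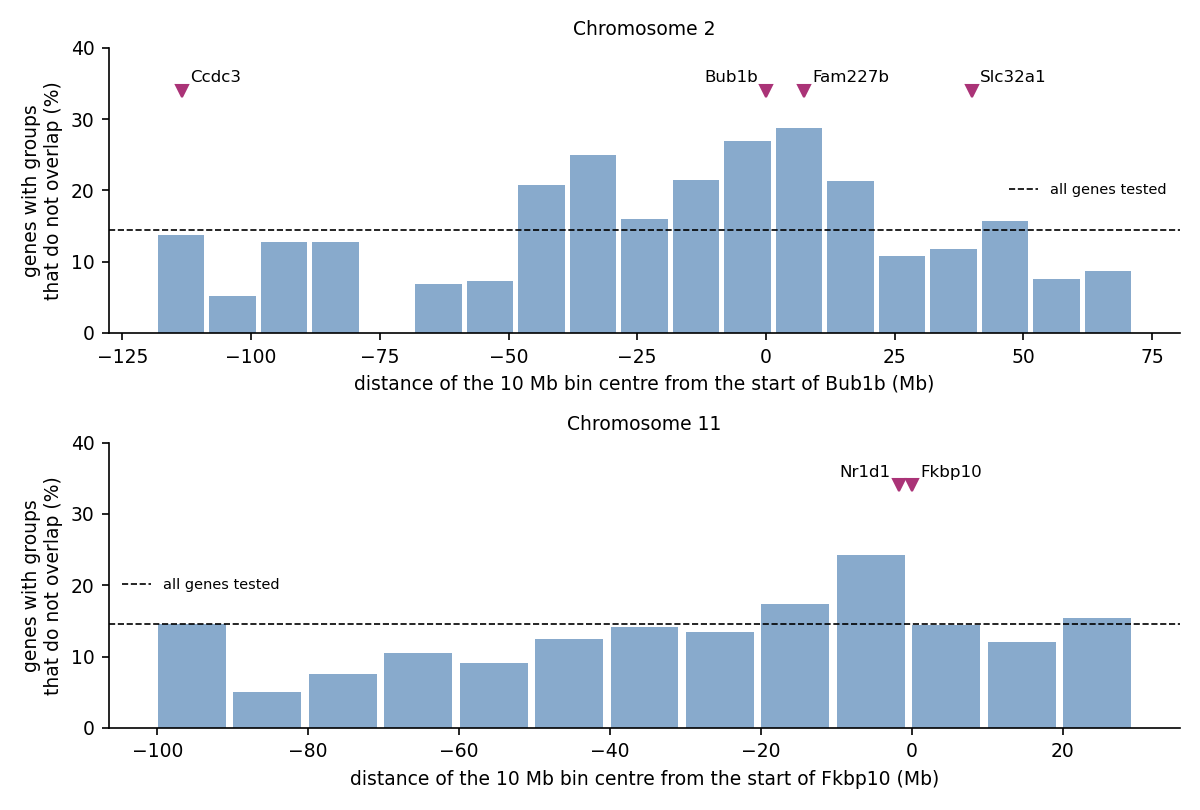
Share of tested genes whose V and r1r2V libraries do not overlap (vertical axis, percent) in stretches of 10 Mb along chromosomes 2 and 11, against the distance of the middle of the stretch from the start of Bub1b or Fkbp10 in Mb. The dashed line is the share of all genes tested, 14.5%, triangles mark gene starts, and stretches with fewer than 20 tested genes are blank. Bub1b and Fam227b lie in stretches at 26.9% and 28.7%, and Ccdc3 and Fkbp10 in stretches at 13.8% and 14.4%.

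No other gene of the spindle checkpoint and mitosis passed the test. Of 38 genes on that list 30 others were tested, and edgeR, DESeq2 and limma-voom called 0 of them, with 2 at an unadjusted p under 0.05 (6.67%, beside 7.58% of all genes). Their median log2 fold change was -0.02, beside 0.01 over all genes. The groups did not overlap in Mad2l1bp, which was higher, and in Mad1l1 (-0.27), Cenpf (-0.69) and Aurka (-0.46), which were lower, 4 of 30 genes beside 14.5% of all genes tested. Bub3, whose protein binds BUBR1, had a log2 fold change of 0.17 (edgeR adjusted p = 0.779) and Mad2l1, which encodes the checkpoint protein MAD2, one of -0.14 (0.851). The 18 tested markers of dividing cells held 0 called by edgeR, DESeq2 or limma-voom and 0 with an unadjusted p under 0.05, with a median of -0.03, and their sum was 156 to 172 CPM in V and 163 to 190 CPM in r1r2V. Of these 18, 8 had log2 fold changes above 0 and 10 below.

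None of the listed collagen genes or other collagen chaperones passed the test. Of the 27 other genes of collagen folding and modification, edgeR, DESeq2 and limma-voom called 0, and 1, P3h4, had an unadjusted p under 0.05. Their median log2 fold change was -0.01. Serpinh1, which encodes the collagen chaperone HSP47, was at 0.01, and Crtap and P3h1, which form the prolyl 3-hydroxylase complex, were at -0.12 and -0.24. In this list P3h2 was higher and P3h4 and Loxl1 lower with groups that did not overlap, 3 of 27 genes beside 14.5% of all genes. The 14 collagen genes held 0 called by the same 3 tools and 0 with an unadjusted p under 0.05, with a median of 0.13 and 12 of 14 above 0. Among the other 14 tested FK506-binding proteins, the family that Fkbp10 belongs to, the 3 tools called 0, with a median of 0.03 and 2 genes at an unadjusted p under 0.05 (14.3%, beside 7.58% of all genes). In that family Fkbp4 and Fkbp5, cochaperones of steroid receptors, were higher and Fkbp1b was lower (-0.31) with groups that did not overlap, 3 of 14 genes beside 14.5% of all genes. By contrast, 3 of 6 clock genes with known REV-ERB elements were called, all higher in r1r2V: Arntl (0.73), Npas2 (0.99) and Nfil3 (1.06). The call of Npas2 ended without V replicate 2, 3 or 4 or r1r2V replicate 1 or 4, with adjusted p up to 0.254, DESeq2 called 4 of the 6 and limma-voom 2. Of the 4 genes described here, Fam227b alone was also higher. Of all 60 called genes 43 were higher, and a link of Fam227b to REV-ERB elements was not tested.

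**Figure D4:**
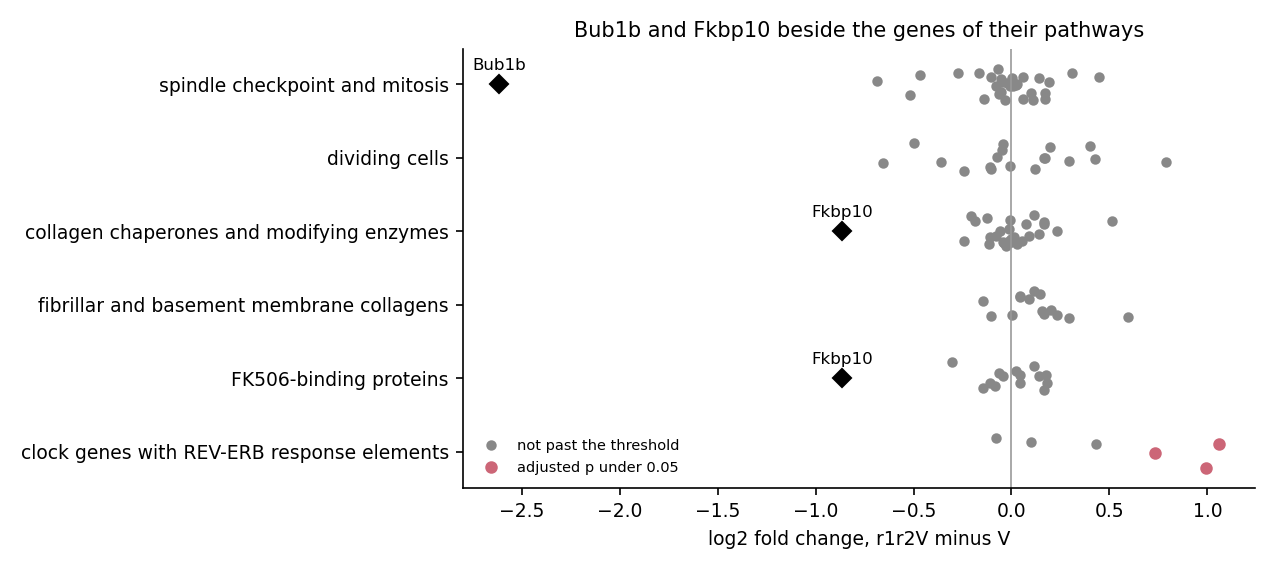
Log2 fold change (r1r2V minus V, horizontal axis) of the genes of 6 lists, 1 row a list. Diamonds are Bub1b and Fkbp10, large points are other genes with an adjusted p under 0.05 and small points are genes past the filter that did not pass the test. Bub1b at -2.61 and Fkbp10 at -0.87, chosen by the group difference, lie below all other genes of their lists. Calls among the other genes appear in the row of clock genes.

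Markers of other cell types of the punch were summed beside these values. The 10 meningeal fibroblast markers, among them the collagen genes Col1a1 and Col1a2, all had log2 fold changes above 0 with a median of 0.52. Their sum was 103 to 145 CPM in V and 103 to 255 CPM in r1r2V, the highest being r1r2V replicate 5. Fkbp10 was lower in all r1r2V libraries, replicate 5 included. The 12 endothelial markers summed to 427 to 463 CPM in V and 398 to 455 CPM in r1r2V, and the 8 mural markers to 215 to 218 and 189 to 254 CPM. The 8 astrocyte markers were at 2747 to 2871 and 2574 to 3032 CPM, and the 8 oligodendrocyte markers at 5441 to 7588 and 5320 to 6863 CPM. The 10 microglial markers, all with log2 fold changes above 0 and a median of 0.10, summed to 400 to 427 and 402 to 471 CPM, those of oligodendrocyte precursors to 370 to 433 and 373 to 460 CPM, and the 7 of ependymal cells, all with log2 fold changes below 0 and a median of -0.06, to 174 to 198 and 167 to 175 CPM. Of the 13 markers of SCN neurons, 10 had log2 fold changes below 0, with a median of -0.09. Of the 82 markers tested, those of SCN neurons included, edgeR and limma-voom called 0 and DESeq2 called 2, and 8 had an unadjusted p under 0.05 (9.76%, beside 7.58% of all genes). No marker was at 0 in all 6 libraries. The sums overlapped between groups for each of these types, and their part in the results was not tested.

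The genes with the most similar profiles were taken as those with the smallest root mean square difference of centred log2 CPM over the 6 libraries, among 13874 genes. For Fam227b these were Gm3500 (0.448), Ccnb1ip1 (0.478) and Myh6 (0.546), and for Bub1b they were Plac9a (0.435), D830030K20Rik (0.583) and Tmem254a (0.656). All of these lie on chromosome 14. For Ccdc3 they were Galnt15 (0.137) and 4930452B06Rik (0.148), also on chromosome 14, and Fkbp10 (0.162). For Fkbp10 they were Scarf1 (0.16), Ccdc3 (0.162) and Dglucy (0.164), on chromosomes 11, 2 and 12. Ccdc3 and Fkbp10, which lie on different chromosomes, were thus each among the closest of the other. Of the 12 places, 8 went to genes of chromosome 14, which holds 514 of the 14438 genes tested (3.56%) and 28 of the 60 called genes. With 6 libraries in 2 groups, such likeness mostly reflects the size and direction of the group difference.

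Of the called genes on chromosome 11 other than Fkbp10 and those beside Nr1d1, none starts within 5 Mb of Fkbp10. Synrg was lower (-0.47, edgeR adjusted p = 0.00921) and Stxbp4 higher (0.50, 0.0335). They start 16.45 and 9.94 Mb from Fkbp10. Their calls ended when single libraries were left out, Synrg without V replicate 2, 3 or 4 (adjusted p up to 0.0896), and Stxbp4 without any 1 of these, or without r1r2V replicate 1 or 4 (up to 0.24).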

How the data were processed

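The 6 deposited tables hold, per the file headers, each gene's expected count, FPKM and transcript length in bases. Expected counts are the authors' estimated counts, and 9.88% of the deposited values were not whole. The deposited FPKM values are the authors' fragments scaled by transcript length and library size. Per the submitters' processing notes, RSEM 1.2.12, Bowtie2 2.2.5, HISAT2 2.0.4, Cufflinks 2.2.1, StringTie 1.0.4, DESeq2 and GATK were used, with build mm10. The role of each was not given in the sources used here. A gene missing from a table was taken as 0 there.

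Rounded expected counts were fitted over all genes in edgeR 4.0.16 (R 4.3.3): filterByExpr with a minimum count of 10, scaling by trimmed mean of M-values, the quasi-likelihood test and Benjamini-Hochberg adjustment, threshold 0.05. The script was tested on simulated data. CPM values use the scaled library sizes. Total expected counts per library, 15729603 to 17780928, set the precision, and exact intervals of count ratios cover counting error only. Alternatives used DESeq2 1.42.0, limma 3.58.1 (voom, or log2(FPKM + 1) and log2(FPKM + 0.1)), other size factors, no filter, a mean of at least 1 CPM, and 1 library left out. The 4 genes, the gene lists and the tests were chosen with earlier results of these data known.

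Named genes are the 4, the targeted genes and Slc32a1, all called genes on chromosomes 2 and 11, nearest and overlapping genes, called genes within 5 Mb, the 3 most similar profiles, and list members. The list members are up to 4 called ones and, for lists that hold one of the 4, the most abundant others. Genes outside this rule, such as Eif3j1, the ends of ranges and list genes named for what they encode, were picked with their values known. A gene that the rule takes is not reported here. Positions are those of RefSeq (GRCm38.p6), strands and exons those of GENCODE M21, and transcripts were matched with BLAST+ 2.17.0 at 90% identity.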

Additional observations from a re-analysis of the deposited data

How the results depend on the processing

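No paired analysis was possible because 4 is the sole replicate number found in both groups. In r1r2V, 43 genes were higher and 17 lower by edgeR, and DESeq2 gave 69 and 40. With 1 library left out the counts ran from 19 to 52 and from 7 to 24, lowest without V replicate 4 (19 and 7), 2 (20 and 7) or 3 (20 and 8). All 60 genes were among the 109 of DESeq2. The log2 fold change of Fam227b was 4.43 with limma-voom, 1.25 on log2(FPKM + 1) and 3.39 on log2(FPKM + 0.1), where the pseudocount is large beside its level, and 4.40 to 4.86 without 1 library. On log2(FPKM + 1) Bub1b was at -0.80, Ccdc3 at -0.74 and Fkbp10 at -0.63, and without 1 library they ran from -3.16 to -2.18, from -1.13 to -1.00 and from -0.95 to -0.77. Neighbours called within 1 Mb were 0, with DESeq2 2 (Tubg1 and Tubg2), within 2 Mb 3 and within 5 Mb 5, and without any 1 library 0. Of the 89 other named genes, 0 of 1153 alternative values reversed a called direction, 55 no longer passed the threshold and 9 passed it newly. The counts of Fam227b in V, 5 in all, and of Bub1b in r1r2V, 31, limit how well their levels there are known, and with 3 libraries a group a single library can decide a call.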
